A study of Saccharomyces cerevisiae with 18 samples.

Results

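Branched-chain amino acid biosynthesis in budding yeast (Saccharomyces cerevisiae) was followed through 10 genes, ILV1, ILV2, ILV3, ILV5, ILV6, LEU1, LEU2, LEU4, LEU9 and BAT1. They were taken by name, as the probe sets that match a single one of these genes, from 5656 genes with such a probe set. Their systematic names are YER086W (ILV1), YMR108W (ILV2), YJR016C (ILV3), YLR355C (ILV5), YCL009C (ILV6), YGL009C (LEU1), YCL018W (LEU2), YNL104C (LEU4), YOR108W (LEU9) and YHR208W (BAT1). The 10 genes had 12 probe sets, because LEU2 had 3, and all 10 passed the filter on low signal that left 5545 genes for testing. No measured value entered the choice of the genes, although results of these data were known when they were chosen.

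Isoleucine, valine and leucine are made by a branched pathway that runs largely in mitochondria. ILV1 codes for threonine deaminase, which opens the isoleucine branch. The later steps of the isoleucine and valine branches are shared: acetolactate synthase (catalytic subunit ILV2, regulatory subunit ILV6), acetohydroxyacid reductoisomerase (ILV5) and dihydroxyacid dehydratase (ILV3). BAT1 codes for the mitochondrial transaminase of the last step. Leucine leaves the valine branch through the isopropylmalate synthases LEU4 (the major form) and LEU9, the isopropylmalate isomerase LEU1 and the isopropylmalate dehydrogenase LEU2. The transcription factor Leu3, which responds to the intermediate alpha-isopropylmalate, and Gcn4, the general activator of amino acid biosynthesis, are the best known regulators of these genes.

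The arrays came from 6 groups of 3 independent cultures, each sampled in exponential growth in synthetic complete medium. They were a far1 deletion strain in ethanol and in glucose, a FAR1 overexpression strain in ethanol and in glucose, and the W303-1A wild type in ethanol and in glucose. Far1, the product of FAR1, inhibits cyclin-dependent kinase and arrests the cycle in response to pheromone, and the study asked how its dosage changes transcription on each carbon source. Per the labels the deletion is marked with HIS3, and the overexpression strain carries a plasmid, pTet-FAR1-15Myc, which encodes Myc-tagged FAR1. All 6 groups share a MATa background that carries trp1-1 and the joint LEU2 mutations leu2-3 and leu2-112, together with can1-100, ade2-1, ura3-1 and his3-11. The LEU2 gene is therefore labelled as mutant in every group. The labels do not say which marker the plasmid carries, or whether a strain was 1 clone.

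FAR1 itself checks the labels. Its deposited intensity was 4.1 to 7.0 on 5 of the 6 arrays labelled deletion and 556.9 to 2722.3 on 5 of the 6 labelled overexpression, against 17.9 to 29.3 on the wild type arrays. The array labelled deletion, ethanol, replicate 3 read 2595.7, and the array labelled overexpression, ethanol, replicate 3 read 3.3, each at odds with its label. These are called the ethanol pair below, and changes that use them are given as labelled, with the value without them where they bear on a call. HIS3 read 127.2 to 340.0 on the arrays of both altered strains, against 6.4 to 10.2 on the wild type arrays, and TRP1 read 186.6 to 663.1, against 6.9 to 31.9. Actin signal from the 5′ end was nearly absent on overexpression glucose arrays 1 and 3 (3′ over 5′ log2 ratio 8.06 and 8.87, against 0.32 to 1.04 elsewhere). Although the labels say MATa, the a-cell gene STE2 read at most 2.4 on every array, and the alpha-cell gene STE3 at least 38.4. Of the 7 a-cell genes checked, 11.4 was the highest value on any array, while the highest values of the 4 alpha-cell genes were 126.7 to 2399.4 and their lowest 2.4 to 445.7. A hybridization spike-in split the arrays: the 5′ over 3′ ratio of BioDn was 0.169 to 0.231 on deletion glucose array 1 and all 6 of the wild type, and 0.369 to 0.575 on the other 11. Arrays had median intensities of 8.5 to 23.8, the correlation across genes between replicates was 0.941 to 0.979, and at most 4.04% of values were identical in any 2 arrays.

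Levels below are normalized intensities, on a linear scale after quantile normalization of the 18 arrays, in the order of replicates 1, 2 and 3. They compare the same gene between arrays and not one gene with another. Changes are log2 differences from limma with their standard errors (n = 3 arrays per group), and a gene rose or fell where its p-value, adjusted over the 5545 genes, was under 0.05. The arrays measured RNA pooled from whole cultures and set to a common scale, so less of a transcript per cell and fewer cells that make it cannot be told apart. They give no total RNA per cell.

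In the wild type, 5 of the 10 genes fell in ethanol, 1 rose and 4 did not pass the test. The genes that fell were ILV1, ILV3, ILV6, LEU9 and BAT1, from a log2 change of −0.58 for ILV6 to −1.62, or 3.07-fold, for LEU9. LEU4, the major isopropylmalate synthase, rose 1.92-fold. Over all tested genes 22.4% rose and 20.9% fell in this comparison. The median log2 change of the 10 genes was −0.67, against 0.00 for all tested genes.

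At the entry to the isoleucine branch, ILV1 read 134, 120.0 and 146 in wild type ethanol cultures, against 287, 300.5 and 317 in wild type glucose cultures. The groups lay far apart, with a log2 change of −1.18 ± 0.17 (adjusted p = 1.72e-05). Of the acetolactate synthase subunits, the catalytic ILV2 read 185, 246 and 240.4 in ethanol, against 279, 201 and 176 in glucose. Its groups overlapped and its change was 0.05 ± 0.26 (adjusted p = 0.905). The regulatory subunit ILV6 was lower on each ethanol array than on any glucose array, at 417, 425 and 449 in ethanol, against 631, 704 and 599.8 in glucose, a change of −0.58 ± 0.15 (adjusted p = 0.00564). The reductoisomerase ILV5 read 586, 709 and 653 in ethanol, against 657, 413 and 444 in glucose. Its groups overlapped, and its change of 0.39 ± 0.21 (adjusted p = 0.139) did not pass. The dehydratase ILV3, which follows it, read 342, 371 and 352 in ethanol, against 706, 563 and 451 in glucose, without overlap, and fell by a log2 change of −0.67 ± 0.19 (adjusted p = 0.00771). BAT1, the transaminase, read 262, 287 and 309.9 in ethanol, against 959.5, 731 and 500.4 in glucose. All 3 ethanol arrays were below the lowest glucose array, at a change of −1.30 ± 0.24 (adjusted p = 0.000316).

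The leucine branch held both the rise and the deepest fall. LEU4 read 1194, 1095 and 1164 in wild type ethanol, against 787, 622 and 442 in wild type glucose, a change of 0.94 ± 0.21 (adjusted p = 0.00137). LEU9, the other isopropylmalate synthase, read 24.2, 18.4 and 33.5 in ethanol, against 83.1, 76.7 and 70.2 in glucose, a change of −1.62 ± 0.21 (adjusted p = 6.21e-06). The paralogs therefore differed in direction, and neither showed overlap between its groups. LEU1 read 368, 494 and 436 in ethanol, against 1254, 766 and 636 in glucose. Its ethanol arrays were all below the glucose arrays, but the glucose arrays were widely spread, and its change of −0.98 ± 0.42 (adjusted p = 0.0685) did not pass. LEU2 overlapped, at 54.9, 85.9 and 79.8 in ethanol, against 173, 111 and 78.7 in glucose, with a change of −0.67 ± 0.45 (adjusted p = 0.251). On the deposited scale, without normalization, the falls of ILV3 (−0.26, adjusted p = 0.486) and ILV6 (−0.14, adjusted p = 0.685) no longer passed, and the median of all genes moved to 0.66 (in the deletion to 0.36 and in the overexpression strain to 0.28). With arrays centred on their medians, the rise of LEU4 was 0.52 (adjusted p = 0.106), and without wild type glucose array 1 the fall of ILV3 was −0.51 (adjusted p = 0.0511). ILV5 passed as a rise on the deposited scale, at 0.86 (adjusted p = 0.0193), and without wild type glucose array 1, at 0.60 (adjusted p = 0.0321).

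**Figure D1:**
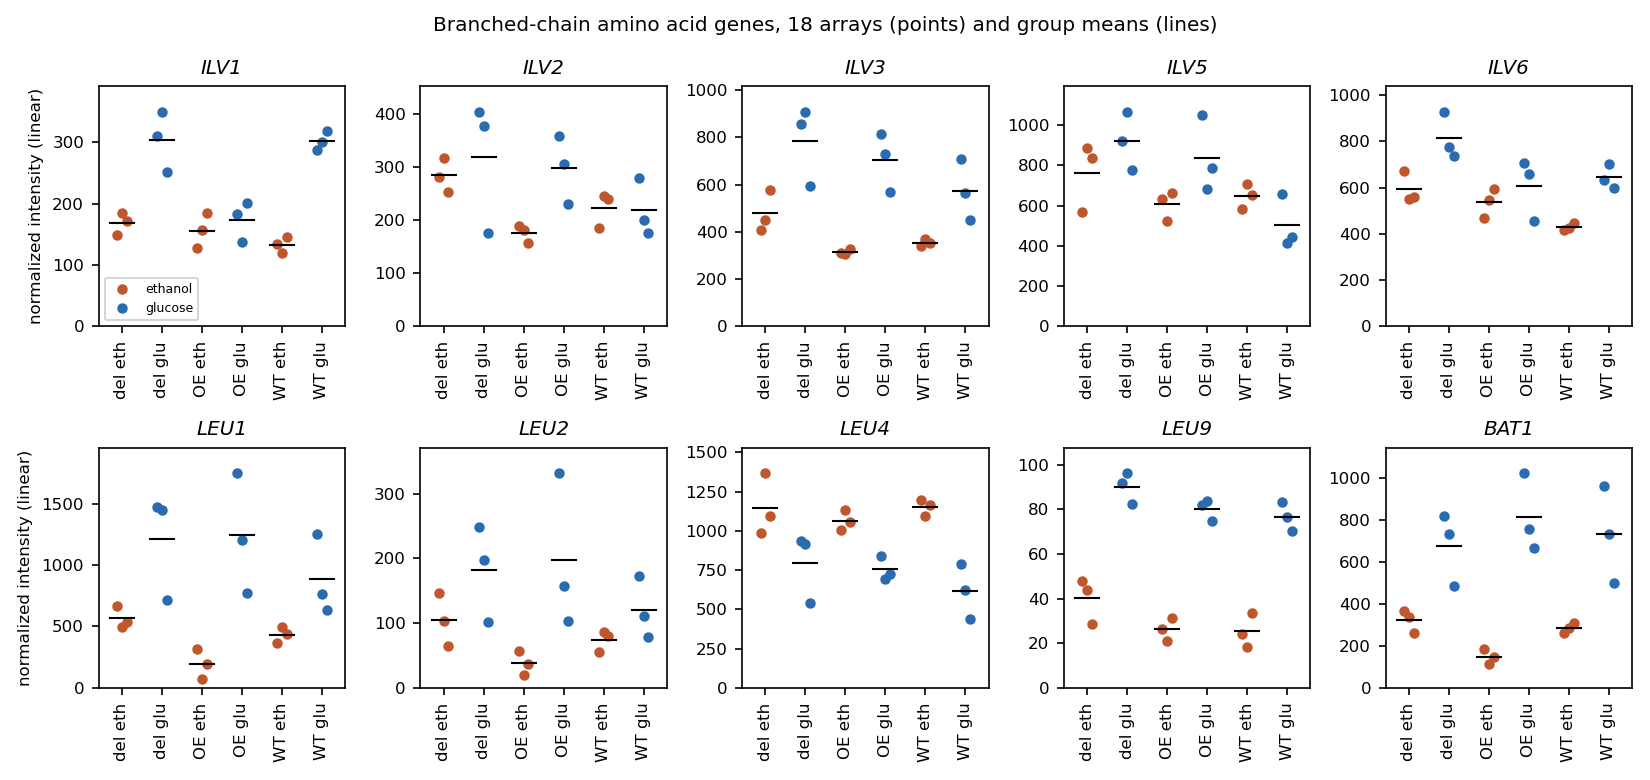
Normalized intensity (linear axis from 0) of each of the 10 genes on the 18 arrays, with 1 panel per gene, 3 points per group and the group mean as a line (del, far1 deletion; OE, FAR1 overexpression; WT, wild type; eth, ethanol; glu, glucose). LEU9 and BAT1 lay lower on all ethanol arrays than on any glucose array of the same strain, LEU4 lay higher, and ILV1 showed no such gap in the overexpression strain.

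In the far1 deletion strain 5 of the 10 genes fell in ethanol, namely ILV1, ILV3, ILV6, LEU9 and BAT1, and LEU4 rose, as in the wild type. Over all tested genes 21.7% rose and 21.2% fell. The median log2 change of the 10 genes was −0.74, against −0.01 for all tested genes. ILV1 read 148, 185 and 172 in deletion ethanol cultures, against 309.9, 349 and 252 in deletion glucose cultures, a change of −0.84 ± 0.17 (adjusted p = 0.000542). BAT1 read 367, 337 and 259 in ethanol, against 818, 731 and 484 in glucose, a change of −1.06 ± 0.24 (adjusted p = 0.00197). Neither gene's groups overlapped. LEU9 read 48.1, 43.8 and 28.7 in ethanol, against 91.6, 96.2 and 82.5 in glucose, and fell by a change of −1.19 ± 0.21 (adjusted p = 0.000168). ILV3 read 406, 451 and 578 in ethanol, against 855, 908 and 593 in glucose, a narrow gap between the groups, at −0.71 ± 0.19 (adjusted p = 0.00536). The smallest fall was that of ILV6, at 672, 552 and 561 in ethanol, against 928, 774 and 738 in glucose, with a change of −0.45 ± 0.15 (adjusted p = 0.0264).

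LEU4 read 984, 1367 and 1095 in deletion ethanol, against 936, 919 and 541 in deletion glucose, and its change was 0.55 ± 0.21 (adjusted p = 0.0394). LEU1 read 669.7, 495 and 533 in ethanol, against 1475, 1450.3 and 718 in glucose. Its groups did not overlap, and its change of −1.04 ± 0.42 (adjusted p = 0.0551) lay just short of the threshold. It passed on the deposited scale (0.0365), with arrays centred on their medians (0.00811), with a larger pseudocount (0.0499), with only the compared groups fitted (0.0125), without the 2 glucose arrays that lacked 5′ actin signal (0.0487) and without deletion glucose array 3 (0.0224), but not without the ethanol pair (0.125), all as adjusted p-values. LEU2 (−0.77 ± 0.45), ILV5 (−0.29 ± 0.21) and ILV2 (−0.08 ± 0.26) did not pass either, although ILV5 did with arrays centred on their medians, at −0.94 (adjusted p = 0.00181). The calls of LEU4 and ILV6 depended on single arrays. Without the ethanol pair ILV1, ILV3, LEU9 and BAT1 still passed, with changes of −0.86 (adjusted p = 0.00117), −0.85 (adjusted p = 0.00321), −0.96 (adjusted p = 0.000979) and −0.91 (adjusted p = 0.0155), while LEU4 changed by 0.58 (adjusted p = 0.0708) and ILV6 by −0.41 (adjusted p = 0.0717). The LEU4 call was also lost without deletion glucose array 3 (0.245), ethanol array 2 (0.158) or ethanol array 3 (0.0627), and that of ILV6 without deletion glucose array 1 (0.122), ethanol array 2 (0.0846) or ethanol array 3 (0.0727), all as adjusted p-values. With arrays centred on their medians the sign of LEU4 turned (−0.22, adjusted p = 0.507), and ILV6 on the deposited scale changed by −0.54 (adjusted p = 0.126).

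In the FAR1 overexpression strain 6 of the 10 genes fell in ethanol and none rose. Those that fell were ILV2, ILV3, LEU1, LEU2, LEU9 and BAT1, and over all tested genes 17.4% rose and 22.8% fell. The deepest were LEU1, 7.06-fold lower in ethanol, BAT1, 5.49-fold lower, and LEU2, 4.97-fold lower. ILV1 and ILV6, which fell in both other strains, did not pass here. The median log2 change of the 10 genes was −0.94, against −0.09 for all tested genes.

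LEU1 read 319, 73.1 and 197 in overexpression ethanol cultures, against 1746, 1202 and 776 in overexpression glucose cultures. Even the highest ethanol array was below the lowest glucose array, and the change was −2.82 ± 0.42 (adjusted p = 3.8e-05). LEU2 read 57.5, 20.1 and 36.7 in ethanol, against 332, 157 and 103 in glucose, a change of −2.31 ± 0.45 (adjusted p = 0.000495). BAT1 read 184, 114 and 148 in ethanol, against 1022, 757 and 667 in glucose, a change of −2.46 ± 0.24 (adjusted p = 3.78e-07). Again the groups of both genes stood apart, with the overexpression ethanol array 2 lowest in each. LEU9 read 26.5, 21.2 and 31.2 in ethanol, against 82.0, 83.5 and 74.9 in glucose, with a change of −1.61 ± 0.21 (adjusted p = 8.51e-06). ILV3 read 312, 308 and 328 in ethanol, against 812, 729 and 569 in glucose, with a change of −1.14 ± 0.19 (adjusted p = 0.000104). ILV2, the catalytic subunit of acetolactate synthase, was lower on each ethanol array than on any glucose array, at 190.0, 181 and 157 in ethanol, against 358, 307 and 229.9 in glucose, a change of −0.74 ± 0.26 (adjusted p = 0.0289).

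ILV1 overlapped in this strain, at 127, 156 and 184 in ethanol, against 183, 138 and 201 in glucose, and its change was −0.16 ± 0.17 (adjusted p = 0.491). LEU4 again lay higher on every ethanol array, at 1003, 1131 and 1056 in ethanol, against 843, 697 and 729 in glucose, with a change of 0.49 ± 0.21 (adjusted p = 0.0670) that did not pass. ILV5 (−0.45 ± 0.21) and ILV6 (−0.16 ± 0.15) had negative changes that did not pass. With arrays centred on their medians ILV1 fell by a log2 change of −0.52 (adjusted p = 0.0145) and ILV5 by −0.87 (adjusted p = 0.00364), and ILV5 also passed without overexpression glucose array 2, at −0.59 (adjusted p = 0.0427). Without the 2 glucose arrays that lacked 5′ actin signal, LEU1 changed by −2.85 (adjusted p = 0.00172), BAT1 by −2.37 (adjusted p = 8.61e-05), LEU2 by −2.15 (adjusted p = 0.0105) and ILV2 by −0.80 (adjusted p = 0.124). Without the ethanol pair the changes were −2.94 (adjusted p = 0.000226) for LEU1, −2.47 (adjusted p = 4.44e-06) for BAT1 and −2.35 (adjusted p = 0.00166) for LEU2. The call of ILV2 was lost without the pair, at −0.66 (adjusted p = 0.0924), without any 1 overexpression ethanol array other than array 1, or without overexpression glucose array 1 or 2 (log2 changes of −0.76 to −0.60, adjusted p = 0.0573 to 0.123), and on the deposited scale (−0.63, adjusted p = 0.185).

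**Figure D2:**
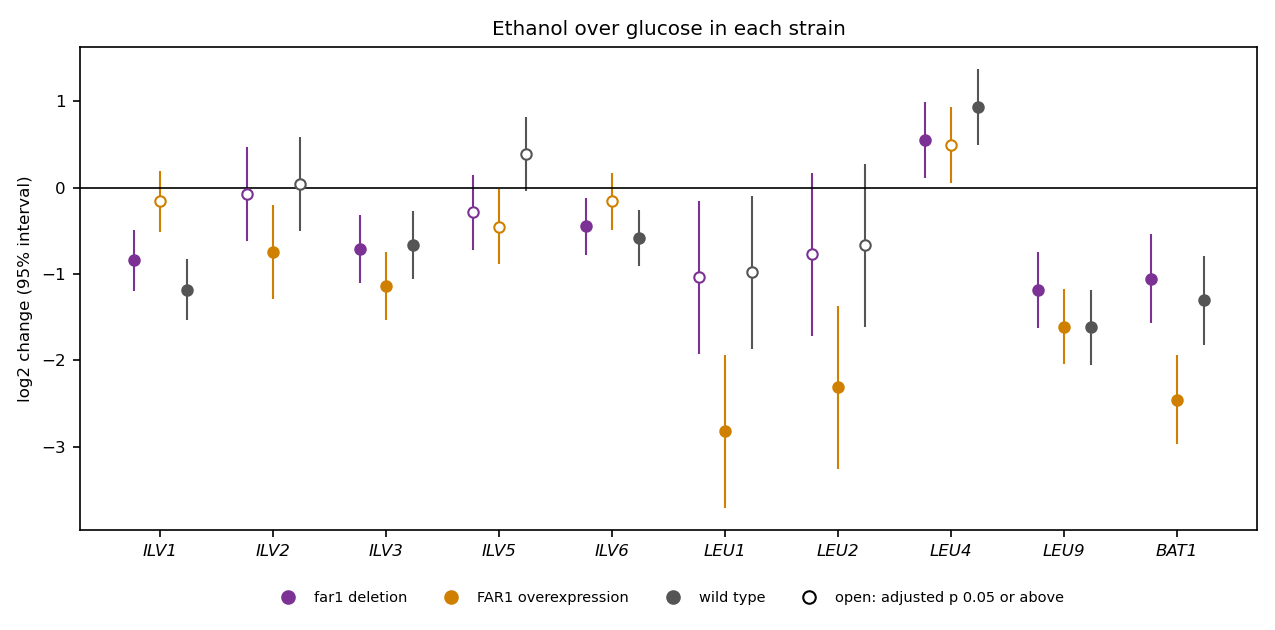
Log2 change between ethanol and glucose (vertical axis, with the 95% interval) of the 10 genes in the deletion, overexpression and wild type strains. Filled points passed the adjusted threshold of 0.05; LEU9, BAT1 and ILV3 were filled and negative in all 3 strains, and LEU1, LEU2 and BAT1 reached their most negative values in the overexpression strain.

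Whether the ethanol change itself differed between strains was tested as a difference of changes. For the deletion strain minus the wild type, 0 of the 10 genes passed in limma, 1 had an unadjusted p under 0.05 (against 8.30% of all tested genes), and 0% of all tested genes passed. For the overexpression strain minus the wild type, 0 of the 10 passed, 6 had an unadjusted p under 0.05 (against 13.7% of all tested genes), and 0.18% of all tested genes passed. ILV1 came nearest, with a difference of 1.02 ± 0.24 (adjusted p = 0.0820), which did not pass. Its ethanol changes were −0.16 in the overexpression strain and −1.18 in the wild type. The difference was −1.16 ± 0.35 (adjusted p = 0.168) for BAT1, −1.84 ± 0.59 (adjusted p = 0.208) for LEU1 and −1.64 ± 0.63 (adjusted p = 0.266) for LEU2. The unadjusted 95% interval of the difference was −3.09 to −0.59 for LEU1 and −1.88 to −0.43 for BAT1, but neither passed after adjustment. For ILV6 the difference was 0.42 ± 0.22 (adjusted p = 0.406). Without overexpression ethanol array 1 the difference of ILV1 was 1.16 (adjusted p = 0.0300), in a fit that still held the ethanol pair. Without the ethanol pair 0 of the 10 passed and 0.956% of all tested genes did, with differences of 0.89 (adjusted p = 0.0937) for ILV1, −1.17 (adjusted p = 0.154) for BAT1 and −1.96 (adjusted p = 0.174) for LEU1.

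Between strains in glucose, ILV5 rose in both altered strains and ILV1 fell with overexpression. ILV5 read 919, 1066 and 776 in deletion glucose cultures, against 657, 413 and 444 in wild type glucose cultures, a change of 0.89 ± 0.21 (adjusted p = 0.0386), or 1.85-fold. All 3 deletion arrays exceeded the highest wild type array. It was the 1 gene of the 10 that passed in this comparison, in which 1.21% of all tested genes rose and 0.361% fell. In overexpression glucose cultures ILV5 read 1049.7, 680.2 and 784, also above all wild type arrays, with a change of 0.74 ± 0.21 (adjusted p = 0.0366). Both comparisons share the wild type glucose arrays, 2 of which were the lowest of the 18 for ILV5. The call in the deletion strain was lost without deletion glucose array 1 (0.133) or 2 (0.144) or wild type glucose array 2 (0.183) or 3 (0.0881), and that in the overexpression strain without overexpression glucose array 1 (0.185) or 3 (0.0844) or wild type array 2 (0.158) or 3 (0.0853), all as adjusted p-values. The same ILV5 change without both overexpression arrays that lacked 5′ actin signal was 0.46 (adjusted p = 0.656).

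ILV1 fell in overexpression glucose cultures, where 5.36% of all tested genes rose and 2.04% fell. It read 183, 138 and 201 in overexpression glucose, against 287, 300.5 and 317 in wild type glucose, a change of −0.81 ± 0.17 (adjusted p = 0.00742). Against the deletion strain, where ILV1 read 309.9, 349 and 252 in glucose, the change was −0.81 ± 0.17 (adjusted p = 0.0195), and 2% of all tested genes rose and 0.848% fell. Of the 3 glucose groups the overexpression group was the lowest for ILV1, without overlap with either other group, while the deletion and wild type arrays overlapped. Without the 2 arrays that lacked 5′ actin signal, 1 overexpression glucose array was left, and the changes were −1.13 (adjusted p = 0.0225) against the wild type and −1.12 (adjusted p = 0.0616) against the deletion. On the deposited scale the change was −0.36 (adjusted p = 0.339) against the wild type and −0.86 (adjusted p = 0.225) against the deletion. The call against the deletion was also lost without deletion glucose array 1 (0.0697) or 2 (0.0755) or overexpression glucose array 1 (0.0625), as adjusted p-values. With the split in the spike-in ratio as a block, ILV1 changed by −0.75 (adjusted p = 0.327) against the wild type, and ILV5 by 0.90 (adjusted p = 0.225) in the deletion and 0.75 (adjusted p = 0.445) in the overexpression strain. All wild type arrays lay on the low side of that split and all overexpression arrays on the high side. Only deletion glucose array 1 told the split from the strains, so the loss of these calls cannot separate them.

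The other 8 genes did not pass in any glucose comparison. LEU1 read 1475, 1450.3 and 718 in deletion glucose and 1746, 1202 and 776 in overexpression glucose, against 1254, 766 and 636 in wild type glucose, so that each group held a low array 3 and the groups overlapped. The changes of the 10 genes had a median of 0.41 for deletion against wild type and 0.32 for overexpression against wild type, with all-gene medians of −0.02 and 0.07. An unadjusted p under 0.05 was found for 3 of the 10 genes with the deletion, against 13.9% of all tested genes, and for 2 with overexpression, against 22.9%.

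In ethanol, 0 of the 10 genes passed in any comparison between strains. Of all tested genes 0.0721% passed in limma for deletion against wild type, 0.379% for overexpression against wild type and 0% for overexpression against deletion. An unadjusted p under 0.05 was found for 3 of the 10 genes in deletion against wild type (against 6.80% of all tested genes), for 3 in overexpression against wild type (10.9%) and for 6 in overexpression against deletion (5.57%). LEU1, LEU2 and BAT1 had the largest changes in the overexpression strain, all negative. LEU1 read 319, 73.1 and 197 in overexpression ethanol cultures, against 368, 494 and 436 in wild type ethanol cultures, with a change of −1.37 ± 0.42 (adjusted p = 0.191). BAT1 read 184, 114 and 148 in overexpression ethanol, against 262, 287 and 309.9 in wild type ethanol, with a change of −0.97 ± 0.24 (adjusted p = 0.115). In both genes every overexpression array lay below every wild type array, but neither change passed. LEU2 read 57.5, 20.1 and 36.7 in overexpression ethanol, against 54.9, 85.9 and 79.8 in wild type ethanol, and overlapped by 1 array, with a change of −1.04 ± 0.45 (adjusted p = 0.393).

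Group values that did not overlap were counted as a description, on the arrays as labelled. Between overexpression and wild type ethanol arrays, 3 of the 10 genes (ILV3, LEU1 and BAT1) were lower without overlap, against 11.8% of all tested genes, and 1 (ILV6) was higher, against 7.95%. Between deletion and wild type ethanol arrays, 5 of the 10 (ILV1, ILV2, ILV3, ILV6 and LEU1) were higher without overlap, against 6.96%. Between overexpression and deletion ethanol arrays, 5 of the 10 (ILV2, ILV3, LEU1, LEU2 and BAT1) were lower without overlap, against 5.46%. The deletion and overexpression comparisons share the wild type arrays. Against the deletion, all 10 genes had a negative change in the overexpression strain, with −1.75 ± 0.42 for LEU1, −1.51 ± 0.45 for LEU2 and −1.12 ± 0.24 for BAT1, and a median of −0.58 against −0.02 for all tested genes.

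The ethanol pair bears on these values. On the array labelled overexpression, where FAR1 read 3.3, LEU1 was 197, LEU2 36.7 and BAT1 148, each between the 2 other overexpression arrays. On the array labelled deletion, where FAR1 read 2595.7, LEU1 was 533, LEU2 65.5 and BAT1 259, with LEU2 and BAT1 the lowest of the deletion ethanol arrays. Of these, LEU1 lay within its labelled group, and LEU2 and BAT1 lay between the other deletion arrays and the overexpression arrays. Without the pair, 1.98% of all tested genes passed in overexpression against wild type and 0.902% in overexpression against deletion. Of the 10 genes 0 passed in any of the 3 comparisons: BAT1 changed by −0.98 (adjusted p = 0.0915) in the overexpression strain against the wild type and by −1.28 (adjusted p = 0.0588) against the deletion, LEU1 by −1.49 (adjusted p = 0.169) and −1.91 (adjusted p = 0.159), and LEU9 against the deletion by −0.94 (adjusted p = 0.0506). Without overexpression ethanol array 1, LEU1 (−1.84, adjusted p = 0.0349) and BAT1 (−1.14, adjusted p = 0.0469) passed against the wild type, and LEU1 (−2.22, adjusted p = 0.0214) and BAT1 (−1.29, adjusted p = 0.0391) against the deletion. That fit still held the ethanol pair, so the overexpression group included the array where FAR1 read 3.3. The deletion group included the one where it read 2595.7. The role of a mix-up of arrays or cultures was not tested.

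**Figure D3:**
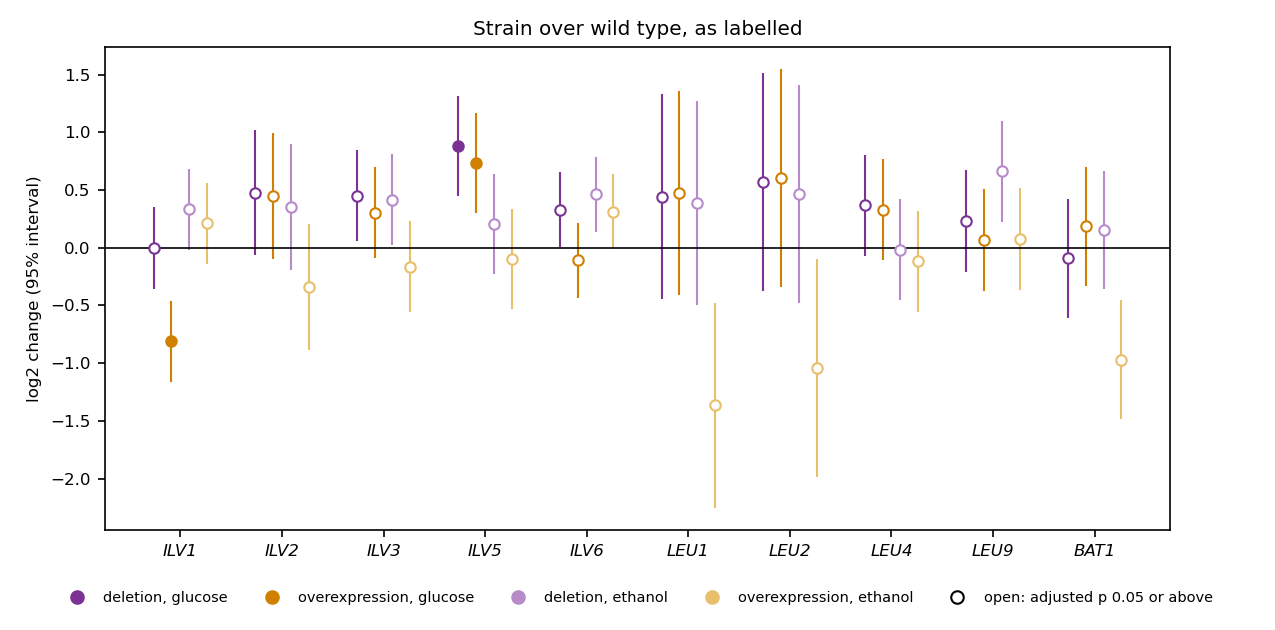
Log2 change of the 10 genes in the deletion and overexpression strains over the wild type, in glucose and in ethanol, as labelled (vertical axis, with the 95% interval). ILV5 was filled and positive in both strains in glucose, ILV1 filled and negative with overexpression in glucose, and the lowest points, LEU1, LEU2 and BAT1 with overexpression in ethanol, are open because they did not pass.

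**Figure D4:**
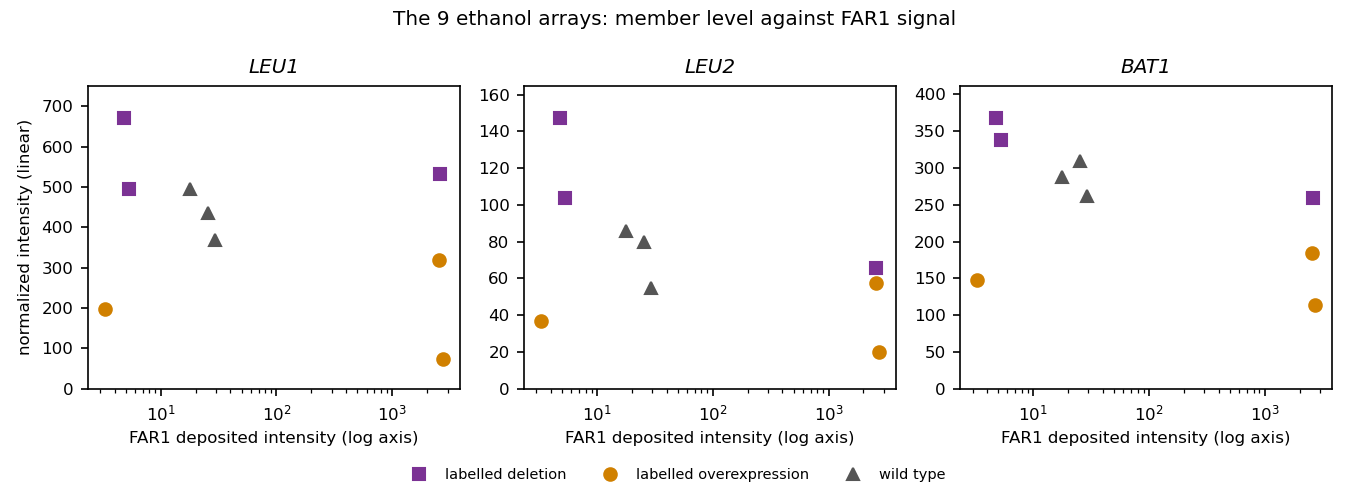
Normalized intensity of LEU1, LEU2 and BAT1 (linear axes from 0) against the deposited FAR1 intensity (log axis) on the 9 ethanol arrays, by labelled strain. The 3 arrays labelled overexpression lay below the other 6 arrays in LEU1 and BAT1, both where FAR1 read 2554.1 and 2722.3 and where it read 3.3.

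The order of the 6 groups differed between genes. BAT1 averaged 815 ± 184 in overexpression glucose, 730.4 ± 229.6 in wild type glucose, 678 ± 173 in deletion glucose, 321 ± 55.6 in deletion ethanol, 286 ± 23.8 in wild type ethanol and 148 ± 35.1 in overexpression ethanol (SD, n = 3 each). The 3 glucose groups overlapped with their neighbours, a gap separated them from the ethanol groups, and the overexpression ethanol group lay apart at the bottom. ILV5 averaged 920.3 ± 145 in deletion glucose at the top and 505 ± 133 in wild type glucose at the bottom (SD, n = 3 each), and each of its groups overlapped with the next. LEU4 had the 3 ethanol groups on top, at 1149 ± 197 in the deletion, 1064 ± 64.2 in the overexpression strain and 1151 ± 50.8 in the wild type (SD, n = 3 each). LEU9 was closely grouped in glucose, at 90.1 ± 6.94 in the deletion, 80.2 ± 4.64 in the overexpression strain and 76.7 ± 6.43 in the wild type (SD, n = 3 each).

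Among themselves, LEU1, LEU2 and BAT1 moved most alike. Over the 18 arrays their log2 values correlated at r = 0.963 for LEU1 and LEU2, 0.943 for LEU1 and BAT1 and 0.908 for LEU2 and BAT1. After each group's mean was taken out, these were 0.898, 0.853 and 0.946, so the likeness was also present among replicates. LEU4 correlated with the mean of the other genes at −0.430 over the 18 arrays and at 0.667 within groups. ILV1 had a correlation of 0.0596 with the others within groups. These values are descriptions: arrays of 1 group share a culture type, and all values share the normalization. Part of the shared spread lay in glucose replicate 3. For 7 of the 10 genes (ILV2, ILV3, ILV6, LEU1, LEU2, LEU9 and BAT1), array 3 was the lowest in all 3 glucose groups, against 3.93% of the 5545 tested genes. For LEU1 these arrays read 718 in the deletion, 776 in the overexpression strain and 636 in the wild type. The labels do not say that a replicate number marks a shared day, and whether these cultures differed in density or medium was not tested.

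LEU2 was measured by 3 probe sets that did not run together on the overexpression glucose arrays. The one used here had the highest mean and read 68.6, 27.2 and 41.5 (deposited intensity) in overexpression ethanol cultures, against 296.3, 210.0 and 96.3 in overexpression glucose cultures. Another read 13.3, 7.7 and 5.9 in overexpression ethanol, against 3.9, 67.2 and 0.1 in overexpression glucose. The last read 21.4, 13.2 and 14.8 in overexpression ethanol, against 17.0, 90.1 and 0.6 in overexpression glucose. Glucose arrays 1 and 3, at which both read low, are the 2 that lacked 5′ actin signal. Fitted on their own, these probe sets changed by 0.38 ± 1.10 (adjusted p = 0.826) and −0.00241 ± 0.93 (adjusted p = 0.999) in this strain, and the one used by −2.31 ± 0.46 (adjusted p = 0.000988). With the mean of the 3 probe sets the LEU2 change in this strain was −0.65 (adjusted p = 0.519), so the LEU2 call rests on 1 probe set. On overexpression glucose array 2 the other probe sets read 67.2 and 90.1, above each of their overexpression ethanol values.

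Other genes of the pathway, in a list of 10, moved in both directions in ethanol. In the wild type 3 rose and 3 fell, against 22.4% and 20.9% of all tested genes. In the deletion 3 rose and 2 fell, against 21.7% and 21.2%, and in the overexpression strain 4 rose and 3 fell, against 17.4% and 22.8%. The counts in the wild type and the deletion were thus near the shares of all tested genes. BAT2, the cytosolic transaminase and paralog of BAT1, read 378, 376 and 376 in deletion ethanol, against 172, 194 and 89.7 in deletion glucose; in the overexpression strain it read 339, 280.0 and 263 in ethanol, against 170.5, 198 and 87.5 in glucose, and in the wild type 362, 321 and 368 in ethanol, against 169, 182 and 65.5 in glucose. BAT2 thus rose in each strain where BAT1 fell, with changes of 1.38 ± 0.35 in the deletion, 1.03 ± 0.35 in the overexpression strain and 1.47 ± 0.35 in the wild type. GCN4, which codes for the activator, rose by 0.98 ± 0.14, 0.88 ± 0.14 and 0.69 ± 0.14 in the same strains. LEU5, a mitochondrial carrier needed for coenzyme A import, rose by 1.06 ± 0.19, 0.93 ± 0.19 and 1.35 ± 0.19. OAC1, a mitochondrial carrier that transports oxaloacetate and isopropylmalate, fell by log2 changes of −2.00 ± 0.43, −3.22 ± 0.43 and −1.54 ± 0.43. PAN6, of pantothenate synthesis, fell by −0.96 ± 0.18, −1.33 ± 0.18 and −1.54 ± 0.18. On the deposited scale the deletion calls of GCN4 (0.56, adjusted p = 0.0553) and PAN6 (−0.50, adjusted p = 0.204) were lost. The other ethanol calls of BAT2, GCN4, LEU5, OAC1 and PAN6 were kept on that scale.

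LEU3, which codes for the regulator of the leucine genes, did not pass in any strain, with changes of −0.12 ± 0.22 in the deletion, −0.07 ± 0.22 in the overexpression strain and 0.02 ± 0.22 in the wild type. MMF1 and HMF1, paralogs of the RidA family of imine deaminases, were also measured. MMF1 changed by −0.26 ± 0.14 (adjusted p = 0.155) in the deletion, −0.52 ± 0.14 (adjusted p = 0.00701) in the overexpression strain and −0.39 ± 0.14 (adjusted p = 0.0348) in the wild type. HMF1 changed by 0.08 ± 0.26 (adjusted p = 0.830) in the deletion, 1.00 ± 0.26 (adjusted p = 0.00580) in the overexpression strain and 0.38 ± 0.26 (adjusted p = 0.273) in the wild type. CHA1, the catabolic serine and threonine deaminase, and ECM31, of pantothenate synthesis, did not pass in any strain. Median log2 changes of the list were −0.02 in the deletion, 0.07 in the overexpression strain and −0.07 in the wild type. None of the 10 passed in a comparison between strains with all arrays; OAC1 had −1.30 ± 0.43 (adjusted p = 0.230) in overexpression against wild type ethanol.

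Of 5 permeases that carry branched-chain amino acids, 2 rose and 1 fell in ethanol in the deletion and the wild type, and 2 rose and 0 fell in the overexpression strain. The shares of all tested genes that rose and fell were 21.7% and 21.2% in the deletion. They were 17.4% and 22.8% in the overexpression strain, and 22.4% and 20.9% in the wild type. TAT1 and AGP1 rose in ethanol in all 3 strains, TAT1 by 1.90 ± 0.17 in the deletion, 1.49 ± 0.17 in the overexpression strain and 1.94 ± 0.17 in the wild type, and AGP1 by 0.94 ± 0.19, 1.96 ± 0.19 and 1.48 ± 0.19. GNP1 fell in the deletion (−0.73 ± 0.22) and the wild type (−0.79 ± 0.22), and in glucose it was lower with overexpression than in the wild type, at −0.97 ± 0.22 (adjusted p = 0.0134), a call lost without the 2 arrays that lacked 5′ actin signal. In the overexpression strain GNP1 read 167, 108 and 145 in ethanol, against 135, 241 and 105 in glucose. Its low glucose arrays, 1 and 3, are the 2 that lacked 5′ actin signal. All 5 genes of the threonine branch, which supplies the substrate of ILV1, fell in ethanol in the deletion and the wild type, and 3 of 5 in the overexpression strain (4 of 5 in each altered strain without the ethanol pair). The median log2 changes of these 5 genes were −0.92 in the deletion, −0.65 in the overexpression strain and −0.91 in the wild type. HOM3, aspartate kinase, changed by −0.92 ± 0.20 (adjusted p = 0.00138) in the deletion, −0.43 ± 0.20 (adjusted p = 0.0996) in the overexpression strain and −1.54 ± 0.20 (adjusted p = 7.78e-06) in the wild type. In ethanol HOM3 was higher with overexpression than in the wild type, at 1.18 ± 0.20 (adjusted p = 0.0209). It also read higher in deletion ethanol cultures, at 105, 86 and 77, against 54, 50 and 47 in the wild type. Those groups did not overlap, but the change did not pass.

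Of 30 tested genes for other amino acids that are known as Gcn4 targets, 25 fell in ethanol in the deletion, 23 in the overexpression strain and 27 in the wild type, and 0 rose. Over all tested genes 21.2%, 22.8% and 20.9% fell in the same strains. Their median log2 changes were −1.09 in the deletion, −0.96 in the overexpression strain and −1.25 in the wild type. Without the ethanol pair the count in the deletion was 21, where 18.4% of all tested genes fell. Without the 2 arrays that lacked 5′ actin signal, 1 overexpression glucose array was left, too few to compare counts. In overexpression against wild type ethanol, where LEU1, LEU2 and BAT1 had negative changes, 3 of the 30 were higher, HIS4 (1.41 ± 0.25, adjusted p = 0.0257), LYS1 (1.22 ± 0.24, adjusted p = 0.0279) and ARG1 (1.20 ± 0.20, adjusted p = 0.0209), and 0 were lower. Over all tested genes 0.234% rose and 0.144% fell in that comparison. Without the ethanol pair 5 of the 30 were higher, against 1.05% of all tested genes. On the deposited scale ARG1 had an adjusted p of 0.0548. Deletion against wild type ethanol, which shares the wild type arrays, gave ARG1 at 1.20 ± 0.20 (adjusted p = 0.0300), a call lost without the ethanol pair, and a median of the 30 of 0.36. Over all tested genes 0.0721% rose there. The median log2 change of the 30 was 0.40 in overexpression against wild type, against −0.14 for the 10 branched-chain genes and −0.03 for all tested genes. In glucose, ASN2 was the 1 gene of the 30 that passed with overexpression (0.52 ± 0.15, adjusted p = 0.0415), and 5.36% of all tested genes rose. The count of the 30 was thus near the share of all tested genes. The ASN2 call was lost without the 2 arrays that lacked 5′ actin signal, which left 1 overexpression glucose array.

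Across all 5535 other tested genes, those whose log2 values over the 18 arrays were most like the mean of the 10 genes were MAE1 (r = 0.968), OAC1 (0.958), ALD5 (0.913), PRO2 (0.900), ASK10 (0.892), DIC1 (0.887), NMD3 (0.884) and PDR12 (0.874). The median correlation over those 5535 genes was 0.0233. MAE1, the mitochondrial malic enzyme, changed in ethanol by −0.86 ± 0.24 in the deletion, −1.28 ± 0.24 in the overexpression strain and −0.76 ± 0.24 in the wild type. ALD5, a mitochondrial aldehyde dehydrogenase, changed by −1.11 ± 0.30, −1.05 ± 0.30 and −0.94 ± 0.30. These genes were ranked on the same arrays, so their changes are a description.

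**Figure D5:**
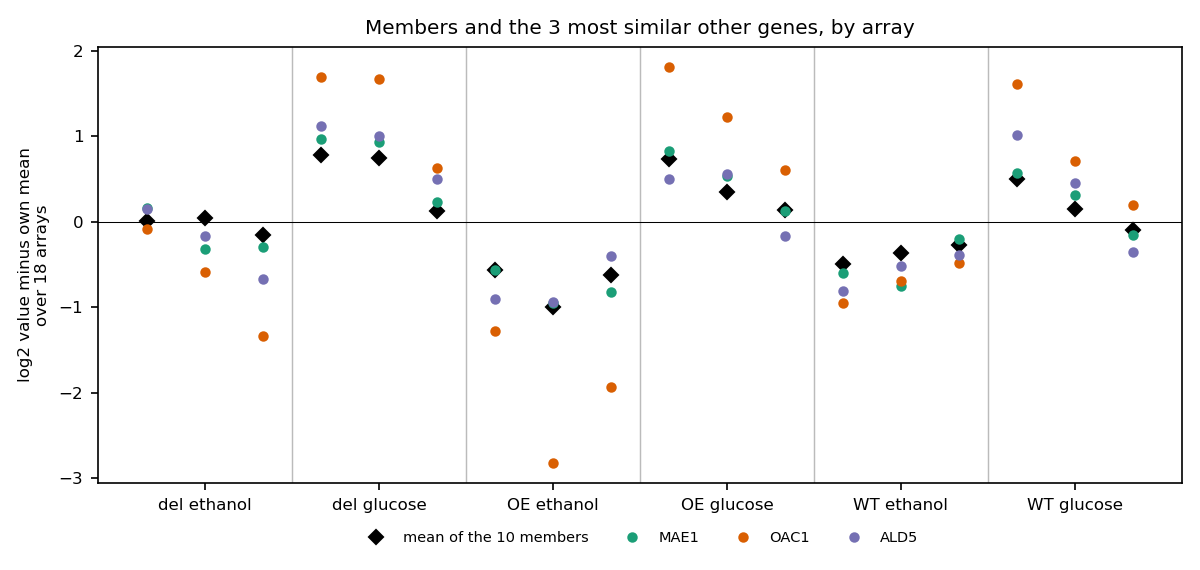
Log2 value minus the gene's own mean over the 18 arrays (vertical axis), by group and array, for the mean of the 10 genes and for MAE1, OAC1 and ALD5, the most similar other genes. The overexpression ethanol arrays were lowest for the mean of the 10 genes, and glucose array 3 was the lowest of its group in each strain.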

How the data were processed

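RNA from 18 cultures was measured on Affymetrix yeast S98 arrays. The authors deposited 1 signal intensity per probe set and array, on a linear scale, processed with GCOS per the submitters' processing notes; version, algorithm and scaling: not given in the sources used here. Per the labels' protocols the target was made with the One-Cycle kit. The arrays give no counts, so their number limits the precision.

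Of 9335 probe sets, 60 controls, 328 with several genes and 2443 with none were left out of the gene tests. The 6504 others stood for 5656 genes, each taken by its probe set with the highest mean. The intensity plus 0.4, the 10th percentile of all deposited values, was taken as log2 and quantile normalized, because the arrays were not at a common level. Genes above the 20th percentile of their array in at least 3 arrays (5545) were fitted with 6 group means in limma 3.58.1 (R 4.3.3; eBayes with intensity trend), and p-values were Benjamini-Hochberg adjusted over all of them in each of 11 comparisons. Normalized intensity is the normalized value returned to the linear scale. On data simulated with 5545 genes for the wild type comparison of ethanol with glucose, the fit recovered 71% of changes of log2 size 1. It recovered 93% of changes of size 2. Only a small part of the genes was changed there, and the groups were otherwise drawn alike. These shares therefore do not give the sensitivity of the comparisons reported here. Changes of dim genes depend on the pseudocount.

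Members, gene lists and tests were chosen with earlier results of these data known. All members and the genes of the pathway list are named; of the other lists at most the 3 largest changes in each direction, and the 8 genes of highest correlation. Over all tested genes, same-numbered replicates of different groups did not deviate together in most pairs of groups, so the number was not a block in the main fit. The labels name no build, so no coordinates are given. Alternatives were other scalings, pseudocount, filter, probe sets, samples fitted, blocks and arrays left out.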

Additional observations from a re-analysis of the deposited data

How the results depend on the processing

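Arrays number 3 per group, which limits the precision, and low signals such as LEU9 in ethanol lie closer to the array background. The number of the 10 genes that passed was the same, or within 1.5 times, in the ethanol comparisons of all 3 strains under all alternatives that kept every array. Which genes passed did change. On the deposited scale the wild type lost ILV3 and ILV6 and gained ILV5, and the deletion lost ILV6 and LEU4 and gained LEU1. With arrays centred on their medians the overexpression strain gained ILV1 and ILV5. Between strains the number moved. For deletion against wild type in glucose (1 gene) it was 0 with only the compared groups fitted, 0 with the replicate block and 0 with the spike-in ratio's split as a block. That split nearly coincided with wild type against altered strains. For overexpression against wild type in glucose (2 genes) it was 1 on the deposited scale, 0 with only the compared groups, 1 with the replicate block, 0 with that split as a block and 1 without the 2 arrays that lacked 5′ actin signal. For overexpression against deletion in glucose (1 gene) it was 0 on the deposited scale, 0 with only the compared groups and 0 without those 2 arrays. For overexpression against wild type in ethanol (0 genes) it was 1 with the replicate block, BAT1 (adjusted p = 0.0475). Leaving out 1 array at a time gave 4 to 6 genes for ethanol against glucose in the deletion, 5 to 6 in the overexpression strain and 6 in the wild type. It gave 0 to 1 for deletion against wild type, 1 to 2 for overexpression against wild type and 0 to 1 for overexpression against deletion in glucose. In ethanol it gave 0 to 2 for overexpression against wild type and against deletion, 0 for deletion against wild type, and 0 to 1 for the difference of the ethanol changes between overexpression and wild type. Counts over all tested genes moved too. In glucose they were 28 to 121 (87 with all arrays) for deletion against wild type and 168 to 662 (410) for overexpression against wild type. They were 27 to 534 (158) for overexpression against deletion in glucose, and 2 to 67 (21) for overexpression against wild type in ethanol. The 1 reversal was LEU4 in the deletion with arrays centred on their medians (−0.22, adjusted p = 0.507), and the cause was not tested. LEU1 passed in the wild type with arrays centred on their medians (−1.39, adjusted p = 0.0221), with only the compared groups (adjusted p = 0.00559) and with the replicate block (adjusted p = 0.0415), and in the deletion with the replicate block (adjusted p = 0.0315). ILV5 lost its glucose calls with the replicate block (adjusted p = 0.0585 in the deletion and 0.0546 with overexpression). Over all genes, deviations of same-numbered arrays of different groups correlated above 0.1 in 7 of 45 pairs (−0.375 to 0.179), so the number was not taken to pair them, although array 3 was lowest in all 3 glucose groups for 7 of the 10 genes. The counts for the other gene lists without the doubted arrays were added after seeing the data.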
